A study of Drosophila melanogaster and Drosophila simulans and Drosophila yakuba with 30 samples.

Results

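The Antennapedia complex is 1 of the Hox gene clusters of Drosophila, and its binding by the group B Sox proteins Dichaete and SoxN was described here as 371 binding intervals of 98045 in 6 lists. Members were all intervals that overlapped a window of 350 kb on chromosome 3R, positions 2480001 to 2830000 of the D. melanogaster build dm3. The window was set by position, and no measured value was used to choose it. The 8 named genes of the complex are lab, pb, zen, bcd, Dfd, Scr, ftz and Antp.

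The data came from DamID-seq, in which a protein of interest is fused to the bacterial enzyme Dam, which methylates the adenine of GATC sites near the places where the fusion protein meets DNA. Methylated fragments were amplified and sequenced, and fragments with more reads in the fusion libraries than in libraries of Dam alone were called as bound. Dichaete-Dam was expressed in embryos of D. simulans (strain w[501]), D. yakuba (Cam-115), D. pseudoobscura (the D. pseudoobscura pseudoobscura reference strain) and D. melanogaster (w[1118]), and SoxN-Dam in embryos of D. simulans and D. melanogaster, each against Dam-only embryos of the same species. The 30 libraries fell into 10 groups of 3 replicates, all from embryos 0 to 16 h old. According to the paper, libraries were run on either a MiSeq or a HiSeq, with longer reads on the MiSeq. It does not state which library was run on which, and the part of this in the lists was not tested.

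Every line carried a piggyBac transgene marked by GFP in the eye, with UAS sites and an Hsp70 promoter, and no tissue driver was named for it in the sources used here. The fusion proteins were those of D. melanogaster in all 4 species, so a difference between species was measured with the same protein in another genome and embryo. Whole embryos were used, and binding in few cells cannot be told apart from weak binding in many. The lists hold no expression values, so the cell types of the embryos were not checked against markers. Each list pooled its 3 replicates and 3 Dam-only libraries into 1 set of intervals, with no read count, enrichment or p-value for an interval. No value below has a replicate error, the sequencing depth behind the lists is unknown, and comparisons are descriptions of the lists set beside the rest of 3R. The 2 fusions of a species also share their Dam-only libraries.

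Hox genes encode homeodomain transcription factors that give body segments their identity, and their order along the chromosome follows the order of the body regions they pattern. They are controlled by long stretches of regulatory DNA between and within the transcription units. Group B Sox proteins bind DNA through an HMG domain and act early in the embryo and in the developing nervous system, where Dichaete and SoxN are expressed in overlapping cells. Dichaete is also known to act in segmentation.

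In the RefSeq annotation of the later assembly, Release 6 plus ISO1 MT, all 8 genes were found on 3R in the order lab, pb, zen, bcd, Dfd, Scr, ftz and Antp. labial (lab) acts in the head and midgut, proboscipedia (pb) in the mouthparts, Deformed (Dfd) in the posterior head and Sex combs reduced (Scr) in the labial segment and the first thoracic segment. Antennapedia (Antp), for which the complex is named, acts in the thorax. zerknüllt (zen), bicoid (bcd) and fushi tarazu (ftz) have left the segment identity role: zen specifies the dorsal extraembryonic tissue, bcd is the maternal anterior determinant and ftz is a pair-rule gene. This stretch of the annotation held 43 genes from lab to Antp, of which 19 code for protein. zen and bcd were direct neighbours, while 9 annotated genes stood between lab and pb, 2 between pb and zen, 6 between bcd and Dfd, 9 between Dfd and Scr, 6 between Scr and ftz and 3 between ftz and Antp. Between Dfd and Antp none of the genes other than Scr and ftz codes for protein. The positions of this assembly differ from those of dm3, so no interval was assigned to a gene, and intervals are given by position alone.

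Most lists covered more of the complex than of the rest of 3R. The exception was Dichaete in D. simulans. Its list held 45 intervals in the window, which covered 32534 bp or 9.30% of it, against 11.4% of the rest of 3R. SoxN in D. simulans had 72 intervals and covered 76231 bp, 21.8% of the window, against 12.2% of the rest of 3R. Dichaete in D. yakuba had 78 intervals and the widest coverage of the window, 120824 bp or 34.5%, against 24.8% of the rest of 3R. The D. pseudoobscura list was sparse throughout, with 2020 intervals in the genome and 6 in the window, and covered 1.06% of the window and 0.754% of the rest of 3R. The paper ties its low number of intervals to noisier profiles and replicates that agreed less well than in the other species. In D. melanogaster, Dichaete had 84 intervals that covered 25.2% of the window and 17.3% of the rest of 3R, and SoxN had 86 intervals that covered 22.9% of the window and 16.4% of the rest of 3R. The ratio of the window to the rest of 3R was 1.79 for SoxN in D. simulans, 1.39 to 1.45 in the 4 lists of D. yakuba, D. pseudoobscura and D. melanogaster, and 0.818 for Dichaete in D. simulans.

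**Figure D1:**
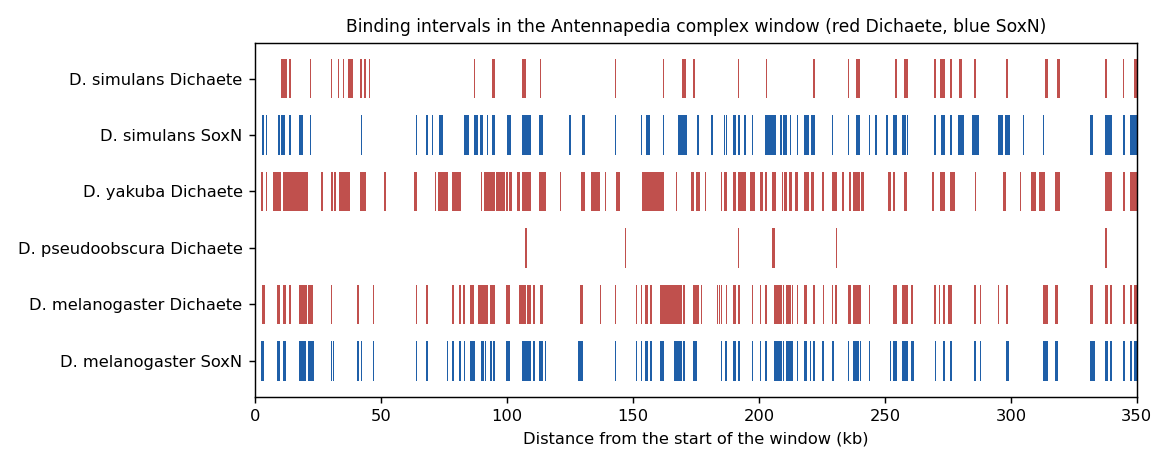
Position of each binding interval (bar) along the window of 350 kb, as distance from its start in kb, with 1 line for each list, Dichaete in red and SoxN in blue. D. pseudoobscura has 6 intervals, D. simulans Dichaete 45 and the 4 other lists 72 to 86, and the D. yakuba bars are the widest.

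These coverages were set beside all 2687 other windows of 350 kb on 3R, taken every 10 kb and leaving out those that overlapped the complex. Such windows overlap each other, so the shares below describe the chromosome and are no test. Coverage of at least the 21.8% of the complex was found in 5.88% of windows for SoxN in D. simulans, the smallest share of the 6 lists. For Dichaete, windows with at least the coverage of the complex made up 64.9% in D. simulans, 12.9% in D. yakuba, 23.7% in D. pseudoobscura and 13.6% in D. melanogaster, and for SoxN in D. melanogaster they made up 18.4%. Ranked by the number of intervals instead, the complex stood higher for SoxN in D. simulans, with 2.08% of windows holding as many, and for both D. melanogaster lists, with 5.51% for Dichaete and 12.3% for SoxN. It stood lower by that measure for Dichaete in D. yakuba, with 17.3%, and in D. pseudoobscura, with 31.4%, and was at 62.2% for Dichaete in D. simulans. In 5 lists the complex was thus above the median window and in D. simulans Dichaete below it, and in none of the 6 lists did it reach the highest window on the arm, which was 34.1% for SoxN in D. simulans and 47.6% for Dichaete in D. yakuba.

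**Figure D2:**
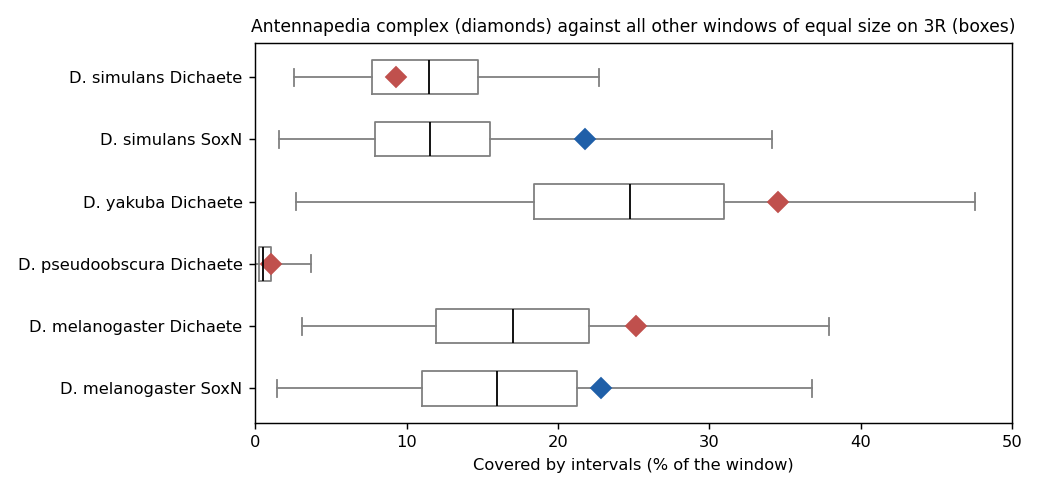
Share of the window covered (percent, x axis) in each list, as a diamond for the Antennapedia complex and a box with median, quartiles and whiskers from lowest to highest for the 2687 other windows on 3R. The diamond lies to the right of the median in 5 lists and to its left for D. simulans Dichaete, at 9.30% against a median of 11.5%.

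The median interval of the complex was also longer than that of the rest of 3R, again except for Dichaete in D. simulans. Median lengths were 526 bp in the complex and 568 bp on the rest of 3R for that list. They were 826 and 639 bp for SoxN in D. simulans, 1133.5 and 903 bp for Dichaete in D. yakuba, 576 and 447 bp in D. pseudoobscura, 768 and 665 bp for Dichaete in D. melanogaster and 711 and 586 bp for SoxN in D. melanogaster. The lists give for each interval the number of GATC fragments merged into it. Single-fragment intervals made up 42.2% of the D. simulans Dichaete intervals of the complex and 33.9% of those on the rest of 3R, and for D. melanogaster Dichaete the shares were 29.8% and 26.7%. In the other lists they were less frequent in the complex, with 26.4% against 31.4% for D. simulans SoxN, 23.1% against 26.4% for D. yakuba, 33.3% against 54.1% for the 6 intervals of D. pseudoobscura and 26.7% against 28.7% for D. melanogaster SoxN.

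The longest interval of the complex was found in D. yakuba, at 2491049-2500927, and measured 9879 bp over 24 fragments. D. yakuba also held the intervals at 2633709-2642242 (8534 bp) and 2513438-2517802 (4365 bp), which gave it 3 of the 5 intervals of at least 4 kb. The interval at 2513438-2517802 had no base in either D. melanogaster list or in the SoxN list of D. simulans, but 32.4% of it was covered by Dichaete in D. simulans. In D. melanogaster the longest Dichaete interval, at 2640649-2649399, measured 8751 bp over 13 fragments. SoxN of D. melanogaster covered 56.1% of it, Dichaete of D. yakuba 25.7%, SoxN of D. simulans 21.0%, Dichaete of D. simulans 3.28% and D. pseudoobscura none. The next of that list were 3792 bp at 2568516-2572307 and 3508 bp at 2497217-2500724.

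The longest SoxN interval of D. simulans, at 2682499-2686868, measured 4370 bp over 13 fragments, of which Dichaete in the same species covered 7.64%. It was followed by 3614 bp at 2585879-2589492 and by 2894 bp at 2827460-2830353, which crosses the end of the window. The 3 longest SoxN intervals of D. melanogaster were 3793 bp at 2585857-2589649, 3319 bp at 2646081-2649399 and 2907 bp at 2497217-2500123. The first of these and the second of D. simulans SoxN lie on the same stretch. The longest Dichaete interval of D. simulans was shorter, 2642 bp at 2490104-2492745, followed by 1788 bp at 2516827-2518614 and 1711 bp at 2585879-2587589. Of the interval at 2516827-2518614, D. yakuba Dichaete covered 54.6%, and neither D. melanogaster list nor D. simulans SoxN covered any base.

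The 2 Sox proteins were then compared within each species. In D. simulans they differed in the complex, where Dichaete covered 12.5 percentage points less than SoxN (9.30% against 21.8%). Over the other windows the 2 lists were near equal, with a median difference of -0.11 points and a range of -16.4 to 7.59 points. A difference at or below that of the complex was found in 43 of 2687 windows, 1.60%, and these fell into 3 stretches of 3R, at 580001-1030000 (11 windows), 12290001-12930000 (30 windows) and 25070001-25430000 (2 windows). By coverage, so large a difference was thus not particular to the complex, and the genes of these stretches were not identified. No window reached the difference of the complex when the 78 other windows were laid side by side or when intervals were counted in place of bases. Both settings were chosen after the data were seen. Windows laid side by side have fixed starts, so they can miss a stretch that sliding windows find. In D. melanogaster Dichaete covered 2.31 points more than SoxN (25.2% against 22.9%), beside a median of 0.91 points over the other windows, and 16.9% of windows had a difference as large.

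**Figure D3:**
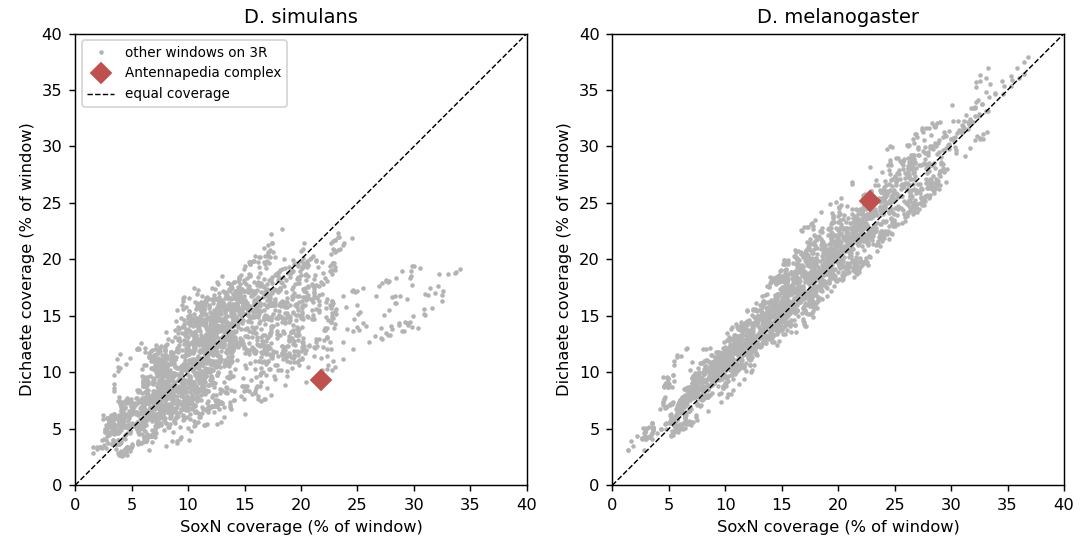
Dichaete coverage (percent of the window, y axis) against SoxN coverage (x axis) in D. simulans and D. melanogaster, with the Antennapedia complex as a red diamond, the other 2687 windows on 3R as grey points and the line of equal coverage. The complex lies at the lower edge of the points in D. simulans, 12.5 points below the line, and just above the line in D. melanogaster.

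The overlap of intervals was counted from 1 shared base. Such shares also depend on how much the overlapping list covers and on interval length, and the part of either was not tested. In D. simulans, SoxN overlapped 36 of 45 Dichaete intervals of the complex (80.0%, exact binomial 95% interval 65.4 to 90.4%) and 64.1% of those on the rest of 3R. Conversely, Dichaete overlapped 38 of 72 SoxN intervals (52.8%, 40.7 to 64.7%), against 69.4% on the rest of 3R. With at least 50% of the interval covered this share was 29.2%, against 56.6% on the rest of 3R. These binomial intervals cover counting error only. They treat neighbouring binding intervals of 1 pooled list as independent, so they are no test against the rest of 3R. In D. melanogaster, SoxN overlapped 73 of 84 Dichaete intervals (86.9%, 77.8 to 93.3%), against 84.3% on the rest of 3R, and Dichaete overlapped 80 of 86 SoxN intervals (93.0%, 85.4 to 97.4%), against 80.4%. Among the windows on 3R, 0.409% had so high a share of D. melanogaster SoxN intervals overlapped by Dichaete and 35.8% so high a share the other way. In D. simulans 6.96% had so high a share of Dichaete intervals overlapped by SoxN, and 5.02% so low a share of SoxN intervals overlapped by Dichaete. In bases, the 2 proteins shared 71680 bp in D. melanogaster, which was 81.4% of the Dichaete and 89.6% of the SoxN coverage. In D. simulans they shared 23162 bp, 71.2% of the Dichaete but 30.4% of the SoxN coverage.

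The SoxN intervals of D. simulans without Dichaete were examined in the other species. Their number is not independent of the low Dichaete coverage given above. There were 34 of 72 in the complex (47.2%), against 1037 of 3391 on the rest of 3R (30.6%). Median lengths were 531 bp for those without Dichaete and 1023 bp for those with it. On the rest of 3R they were likewise 433 and 778 bp, and a longer interval offers more bases to overlap. Of the 34, 24 were overlapped by Dichaete in D. melanogaster, 22 by Dichaete in D. yakuba and 21 by SoxN in D. melanogaster. These shares were 70.6%, 64.7% and 61.8% in the complex, against 51.2%, 52.3% and 52.8% on the rest of 3R. In the same order, the overlapping lists covered 25.2%, 34.5% and 22.9% of the complex and 17.3%, 24.8% and 16.4% of the rest of 3R. The part of these coverages and of interval length in the shares was not tested. The longest of the 34 was 2121 bp at 2562701-2564821. The next, 1885 bp at 2497217-2499101, lay wholly within intervals of both D. melanogaster lists and of D. yakuba Dichaete. Other SoxN intervals of D. simulans without Dichaete were found at 2689441-2691197, 2697999-2699729 and 2775070-2776775. D. yakuba Dichaete covered 77.7% of the first, 100% of the second and none of the third. Each D. melanogaster list covered 56.8% of the first and 51.2% of the second. Of the third, D. melanogaster Dichaete covered 15.9% and SoxN none.

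The position of the difference was followed in 35 bins of 10 kb. Dichaete in D. simulans covered less than SoxN in 25 bins, more in 5 and the same in 5. These counts are not independent of the difference over the whole window given above. Of the equal bins, those at 2530001-2540000 and 2800001-2810000 were empty in both lists. At 2680001-2690000 Dichaete covered 5.87%, against 56.5% for SoxN, and at 2690001-2700000 it covered none, against 42.4%. At 2560001-2570000 the values were 5.94% for Dichaete and 43.8% for SoxN, and at 2770001-2780000 they were 5.91% and 38.1%. The order was turned round at 2510001-2520000, with 29.5% for Dichaete and none for SoxN, at 2520001-2530000 with 18.6% and 2.63%, and at 2790001-2800000 with 23.4% and 6.73%. In the other bins where Dichaete was higher the values were close, 16.8% and 14.7% at 2650001-2660000 and 34.6% and 34.1% at 2750001-2760000. SoxN coverage was thus the higher along most of the complex, and Dichaete coverage in a few bins. Across the 35 bins Spearman's rho between the 2 proteins was 0.274 in D. simulans, where the median over the other windows was 0.701, and 0.945 in D. melanogaster, where that median was 0.885. Bins are neighbours on 1 chromosome and share the Dam-only libraries, so these values are descriptions.

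**Figure D4:**
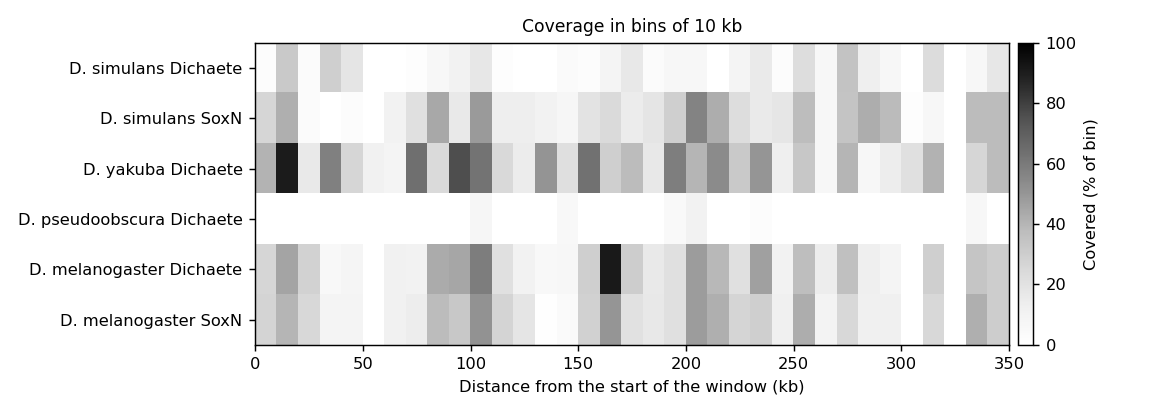
Share of each bin of 10 kb covered (grey scale, 0 to 100%) along the window, as distance from its start in kb, with 1 line for each list. The darkest bins are those of D. yakuba at 90.5% and D. melanogaster Dichaete at 91.2%, no D. simulans Dichaete bin passes 34.6%, and 29 of 35 D. pseudoobscura bins are empty.

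Between species, Dichaete in D. simulans covered 15.9 points less of the complex than Dichaete in D. melanogaster (9.30% against 25.2%). The median difference over the other windows was -5.30 points, and 2.12% of windows were as low. SoxN differed less in the same pair of species, with 21.8% in D. simulans and 22.9% in D. melanogaster, a difference of -1.07 points beside a median of -4.09 points. Dichaete in D. yakuba covered 9.36 points more than in D. melanogaster (34.5% against 25.2%), beside a median of 7.41 points, a difference that 31.7% of windows reached. Set against D. simulans, D. yakuba covered 25.2 points more of the complex (34.5% against 9.30%), beside a median of 13.3 points over the other windows, and 2.16% of windows differed by as much. The number of intervals differs between the lists and their depth is unknown, and the part of either in these differences was not tested.

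Overlap between species was counted in the same way. D. simulans SoxN covered 21.8% of the complex and 12.2% of the rest of 3R, and D. simulans Dichaete 9.30% and 11.4%. The part of these coverages and of interval length in the shares below was not tested. Intervals of Dichaete in D. simulans overlapped 35 of 84 Dichaete intervals of D. melanogaster (41.7%, 31.0 to 52.9%), against 50.8% on the rest of 3R. So low a share was found in 16.3% of windows. With at least 50% of the interval covered the values were 22.6% in the complex and 35.4% on the rest of 3R. SoxN of D. simulans overlapped 57 of 86 SoxN intervals of D. melanogaster (66.3%, 55.3 to 76.1%), against 47.8% on the rest of 3R, and 2.75% of windows had so high a share. Taken the other way, 36 of 45 D. simulans Dichaete intervals (80.0%) and 56 of 72 D. simulans SoxN intervals (77.8%) were overlapped by the same protein in D. melanogaster, against 66.8% and 72.0% on the rest of 3R. The few Dichaete intervals of D. simulans therefore lay mostly on D. melanogaster ones. D. yakuba overlapped 55 of 84 D. melanogaster Dichaete intervals (65.5%, 66.2% on the rest of 3R), and D. simulans overlapped 26 of 78 D. yakuba intervals (33.3%, 23.1 to 44.9%), against 46.8% on the rest of 3R. With at least 50% of the interval covered, this last share was 12.8%, against 25.5% on the rest of 3R, and with intervals within 100 bp counted it was 47.4%, against 52.3%. The share of D. melanogaster intervals overlapped by D. yakuba was 79.8% with intervals within 100 bp counted, against 74.2% on the rest of 3R, and 9 of the 12 intervals gained touched a D. yakuba interval end to end.

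**Figure D5:**
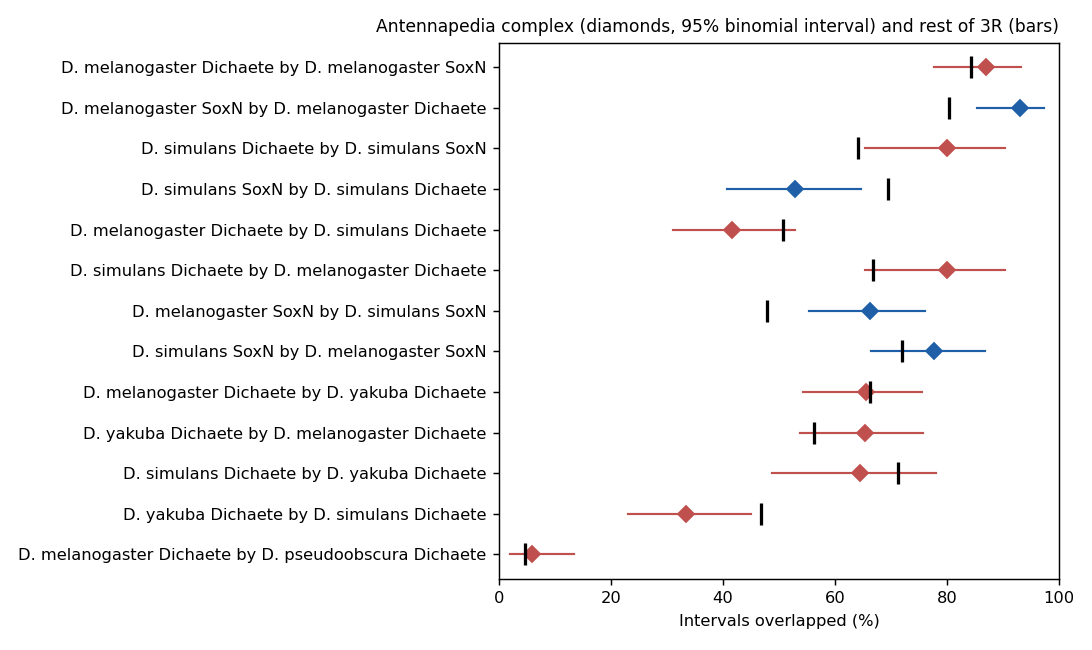
Share of intervals overlapped by another list (percent) for 13 ordered pairs of lists, as diamonds with exact binomial 95% intervals for the Antennapedia complex and as black bars for the rest of 3R. D. simulans SoxN by D. simulans Dichaete lies below its bar (52.8% against 69.4%), and D. melanogaster SoxN by D. simulans SoxN lies above it (66.3% against 47.8%). The binomial intervals treat neighbouring binding intervals as independent and are no test.

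Of the 84 Dichaete intervals of D. melanogaster, 29 were overlapped in both D. simulans and D. yakuba (34.5%, against 42.2% on the rest of 3R), 6 in D. simulans alone (7.14%, against 8.53%), 26 in D. yakuba alone (31.0%, against 24.0%) and 23 in neither (27.4%, against 25.3%). The 29 had a median length of 1235 bp and the 23 one of 319 bp, and a longer interval offers more bases to overlap.

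Joined across the 6 lists, the intervals formed 90 regions that covered 52.1% of the complex, against 35.8% of the rest of 3R. Regions with an interval in 5 or 6 lists numbered 26, or 28.9%, against 23.3% on the rest of 3R. The combination of both D. melanogaster lists, D. simulans SoxN and D. yakuba Dichaete without any D. simulans Dichaete or D. pseudoobscura interval was found in 11 regions (12.2%), against 3.75% on the rest of 3R. Including 1 region with D. pseudoobscura, 12 of the 37 regions that held those 4 lists lacked D. simulans Dichaete (32.4%), against 15.1% on the rest of 3R. They ran from 2487040-2490099 to 2723529-2724164 and the longest was 3929 bp at 2552619-2556547. By bases, 30555 bp were covered in all 4 of these lists, and D. simulans Dichaete covered 39.5% of them, against 67.2% on the rest of 3R. The same measure was 87.0% for D. simulans SoxN (80.1% on the rest of 3R), 71.8% for D. yakuba (83.9%), 98.0% for D. melanogaster Dichaete (95.6%) and 92.1% for D. melanogaster SoxN (92.0%). The lack of D. simulans Dichaete in these counts is not independent of its coverage, 9.30% of the complex and 11.4% of the rest of 3R. It is no separate result.

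A small core was shared by all. In 3 stretches every list had an interval, at 2586969-2587589 (621 bp), 2817352-2817963 (612 bp) and 2671839-2672248 (410 bp), and together they made up 0.469% of the complex, against 0.169% of the rest of 3R. Leaving D. pseudoobscura aside, 20 stretches were covered in all 5 lists, 3.45% of the complex and 3.88% of the rest of 3R. The longest were 1711 bp at 2585879-2587589, which holds the first of the 3, 1265 bp at 2828736-2830000, which ends at the limit of the window, 1109 bp at 2718689-2719797, 851 bp at 2491049-2491899 and 801 bp at 2737519-2738319. Dichaete alone was shared by D. simulans, D. yakuba and D. melanogaster in 25 stretches, 4.39% of the complex and 5.52% of the rest of 3R.

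Of the 6 intervals of D. pseudoobscura, 5 were overlapped by D. melanogaster Dichaete (83.3%, 35.9 to 99.6%), against 70.6% on the rest of 3R. Among the 1040 windows with at least 5 D. pseudoobscura intervals, 17.3% had so high a share. The longest of the 6 was 1028 bp over 5 fragments at 2685350-2686377, and the next was 775 bp at 2586969-2587743. Intervals of 612 bp at 2817352-2817963, 480 bp at 2671769-2672248 and 263 bp at 2710677-2710939 followed. The remaining interval, 540 bp at 2626767-2627306, overlapped none of the other lists. On the rest of 3R, where this list had 381 intervals, 30 regions likewise held D. pseudoobscura alone. In the other direction, D. pseudoobscura overlapped 5 of 84 Dichaete intervals of D. melanogaster (5.95%, against 4.70% on the rest of 3R).

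Parts of the complex held no interval in any list. The longest such gap was 12085 bp at 2799370-2811454, and 244 of the 6310 gaps on 3R were at least as long. Within single lists the longest gap was 33225 bp for D. simulans Dichaete (2525526-2558750), 20580 bp for D. simulans SoxN (2522369-2542948), 17982 bp for D. yakuba (2799370-2817351), 106968 bp for D. pseudoobscura (2480001-2586968) and 15904 bp for both D. melanogaster lists (2527045-2542948). The gaps of both D. simulans lists and both D. melanogaster lists had the stretch 2527045-2542948 in common. Coverage was uneven along the window, and D. yakuba averaged 22.6% in the last 10 bins and 39.3% in the first 25, as against 12.9% and 7.85% for D. simulans Dichaete. The means of these 2 parts were 24.2% and 20.8% for D. simulans SoxN, 0.612% and 1.23% for D. pseudoobscura, 20.2% and 27.2% for D. melanogaster Dichaete and 19.9% and 24.0% for D. melanogaster SoxN. The split was chosen after the data were seen.

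The D. melanogaster lists were also deposited at an adjusted p of 0.01, beside 0.05 used above. At 0.01 Dichaete covered 18.7% of the complex and SoxN 16.1%. For Dichaete, 19.2% of the other windows had at least the coverage of the complex at 0.01, against 13.6% at 0.05. For SoxN these shares were 20.4% and 18.4%. Of the 84 Dichaete intervals 68 still overlapped an interval of the stricter list, and 65 of the 86 SoxN intervals did. Whether this loss of intervals was particular to the complex was not tested. The 16 Dichaete intervals lost had a median length of 403.5 bp, beside 891 bp for those kept, and the 21 SoxN intervals lost one of 319 bp, beside 906 bp.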

How the data were processed

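According to the methods and the submitters' processing notes, the authors removed adapters (Cutadapt) and aligned the reads of each species to its own genome (Bowtie2; builds droSim1, droYak2, dp3 and dm3). Reads of the other species were moved to dm3 with LiftOver, lengthened to 200 bp and counted per GATC fragment (bedtools 2.21.1). The match that LiftOver required was set lower for D. pseudoobscura than for D. simulans and D. yakuba. The authors then called fragments enriched in the fusion over Dam alone with DESeq2 1.6.1 and merged those within 100 bp. The deposited lists hold positions and a count of merged fragments. This last meaning was inferred from the values, as the lists have no header. A fragment is missing from a list where its sequence did not translate or where it missed the threshold. Of the 12 lists, 6 at an adjusted p of 0.05 in dm3 coordinates were used, with 2 at 0.01 as an alternative, and the 4 lists in the coordinates of the other species were not used.

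Coverage, overlap from 1 shared base and windows of 350 kb every 10 kb were computed with Python 3.11.15, NumPy 2.4.6, SciPy 1.17.1 and Matplotlib 3.10.9. All 11 functions were tested on simulated data. Named intervals were the 3 longest of each list, all D. pseudoobscura intervals, stretches covered in all lists, the 5 longest in all lists but D. pseudoobscura, and the longest gaps. Those of D. simulans SoxN without Dichaete, the regions without D. simulans Dichaete and the bins described were chosen after their values were seen. The genes and intervals were chosen with earlier results of these data known. Alternatives were windows laid side by side, windows over the complex kept, 2 Mb at each end of 3R left out, 20 kb trimmed from the window, intervals of at least 500 bp, and other definitions of overlap.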

Additional observations from a re-analysis of the deposited data

How the results depend on the processing

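Of 120 alternatives over 38 results, 101 left the value within its limit and 19 did not. The limit was 1.5 times for counts and otherwise a binomial 95% interval, with each 1000 bp of the window taken as 1 unit for coverage and 79 windows for shares of windows, both arbitrary choices. At an adjusted p of 0.01 coverage of the complex was 18.7% for Dichaete and 16.1% for SoxN in D. melanogaster. Ranked by number of intervals, 5.51% of windows held as many for D. melanogaster Dichaete and 2.08% for D. simulans SoxN. With intervals of at least 500 bp, 24 remained for D. simulans Dichaete and 54 for D. melanogaster SoxN.

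Where at least 50% of an interval had to be covered, the share was 29.2% for D. simulans SoxN by Dichaete, 63.9% for D. simulans SoxN by D. melanogaster SoxN, 39.7% for D. yakuba by D. melanogaster Dichaete, 12.8% for D. yakuba by D. simulans Dichaete, 22.6% for D. melanogaster Dichaete by D. simulans, 53.6% by D. yakuba and 1.19% by D. pseudoobscura, and 52.3% for D. melanogaster SoxN by D. simulans SoxN. Where intervals within 100 bp counted, the share was 79.8% (74.2%) for D. melanogaster Dichaete by D. yakuba. It was 86.7% (78.8%) for D. simulans Dichaete by D. yakuba and 47.4% (52.3%) the other way. From 1 shared base, D. simulans Dichaete by D. yakuba was at 64.4% (71.2%), so its order against the rest of 3R depended on the definition.

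The difference of -12.5 points between Dichaete and SoxN in D. simulans was -11.3 points with 20 kb trimmed from each end and -12.6 points with intervals of at least 500 bp. The share of windows as low, 1.60%, was 0% with windows laid side by side and 0% by number of intervals, and 1.40% and 1.75% with the ends of 3R left out and with intervals of at least 500 bp. These 4 settings of the share were chosen after the data were seen.

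No paired analysis was possible because each list pools its 3 replicates. Leaving out a replicate was not possible either. Depth is unknown from the lists, so a site missing from a list was not detected at that list's threshold and translation, and its absence was not shown.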
